A study of Arabidopsis thaliana with 6 samples.

Results

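Proanthocyanidins are the flavan-3-ol polymers that brown the Arabidopsis seed coat, and 8 genes of their late synthesis, transport and oxidation were followed here in mature ovules. The genes were taken by name and identifier: DFR, LDOX, BAN, TT12, AHA10, TT19, TT10 and TT15. They are 8 of 33977 genes in the deposited count table. Ovules came from PRP8Aa prp8bb plants, which carry T-DNA insertions, and the labels describe them as a mixture of PRP8A;prp8b and prp8a;prp8b ovules. They were compared with ovules of wild type (WT) plants. PRP8A and PRP8B encode PRP8, a core protein of the spliceosome. Each genotype had 3 RNA-seq libraries from ovules of stage 13 to 14 flowers on 6-week-old plants, in which the embryo sac is mature. Ovule coats are tissue of the mother plant, whereas the mixture in the label concerns the embryo sacs, so the genotype of the coats is that of the plant.

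Proanthocyanidins are known to accumulate in the endothelium, the innermost layer of the inner integument, mainly after fertilisation. DFR (dihydroflavonol reductase) and LDOX (leucoanthocyanidin dioxygenase) make anthocyanidins, which BAN (anthocyanidin reductase) turns into epicatechin. TT19 is a glutathione S-transferase needed for pigment to reach the vacuole, TT12 is a vacuolar MATE transporter of flavan-3-ols, and AHA10 is the proton pump whose gradient drives it. TT10 is a laccase that oxidises flavonoids in the maturing seed coat, and TT15 is a sterol glucosyltransferase whose loss gives pale seeds. Transcription of the late genes is known to depend on a complex of TT2 (a MYB protein), TT8 (a bHLH protein) and TTG1 (a WD40 protein).

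The members lie on 4 of the nuclear chromosomes, at the TAIR10 positions given here with the number of merged exons. DFR (AT5G42800) spans 17164093 to 17166032 of chromosome 5 on the minus strand in 6 exons, and LDOX (AT4G22880) spans 12004726 to 12006209 of chromosome 4 on the minus strand in 2. BAN (AT1G61720) spans 22790966 to 22792803 of chromosome 1 on the minus strand in 6 exons. TT19 (AT5G17220) spans 5658416 to 5659661 of chromosome 5 on the plus strand in 3 exons. TT12 (AT3G59030) spans 21819040 to 21821440 of chromosome 3 on the plus strand in 8 exons, and AHA10 (AT1G17260) spans 5904058 to 5908898 of chromosome 1 on the plus strand in 21. TT10 (AT5G48100) spans 19489327 to 19492744 of chromosome 5 on the minus strand in 6 exons, and TT15 (AT1G43620) spans 16425412 to 16430287 of chromosome 1 on the minus strand in 14. TT12 overlaps AT3G59040 by 92 bases and TT19 overlaps AT5G17230 by 108 bases, in each case on the opposite strand, and the counting used strand.

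The 250 bases before the annotated start of 5 members are shown because these genes shared the order of the WT libraries, as given below. That order was not particular to them, since 24.4% of tested genes had it. TT19 shared the order too, but another annotated gene lies in its window, which is therefore not printed. The printed windows were read from the RefSeq TAIR10.1 genome and run 5′ to 3′ on the strand of the gene, with no base of the annotated gene. Whether any of these bases is transcribed was not tested. Capitals mark every match to the E-box CANNTG, which includes the G-box CACGTG bound by bHLH proteins, and to TTGAC, the core of the W-box bound by WRKY proteins, written GTCAA where it lies on the other strand. The DFR window is chr5:17166033-17166282 (minus), the LDOX window chr4:12006210-12006459 (minus) and the BAN window chr1:22792804-22793053 (minus). The TT12 window is chr3:21818790-21819039 (plus) and the AHA10 window chr1:5903808-5904057 (plus).
DFR: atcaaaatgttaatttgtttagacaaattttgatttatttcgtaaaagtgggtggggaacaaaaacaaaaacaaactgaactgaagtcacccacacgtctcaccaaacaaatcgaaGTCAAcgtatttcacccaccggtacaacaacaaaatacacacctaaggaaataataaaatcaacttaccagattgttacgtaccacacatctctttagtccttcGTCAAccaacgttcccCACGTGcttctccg
LDOX: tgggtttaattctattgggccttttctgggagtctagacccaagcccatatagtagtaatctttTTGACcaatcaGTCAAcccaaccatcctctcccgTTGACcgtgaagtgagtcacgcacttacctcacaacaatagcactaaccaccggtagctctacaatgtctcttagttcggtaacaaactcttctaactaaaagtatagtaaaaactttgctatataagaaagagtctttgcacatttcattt
BAN: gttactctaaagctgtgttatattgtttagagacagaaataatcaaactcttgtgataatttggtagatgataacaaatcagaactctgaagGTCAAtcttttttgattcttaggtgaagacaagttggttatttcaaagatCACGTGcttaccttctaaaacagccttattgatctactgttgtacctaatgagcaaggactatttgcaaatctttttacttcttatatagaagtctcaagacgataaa
TT12: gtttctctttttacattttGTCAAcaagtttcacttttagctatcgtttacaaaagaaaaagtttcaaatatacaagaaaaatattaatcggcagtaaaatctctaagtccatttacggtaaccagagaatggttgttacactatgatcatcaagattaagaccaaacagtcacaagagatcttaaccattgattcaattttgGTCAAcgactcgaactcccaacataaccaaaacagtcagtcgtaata
AHA10: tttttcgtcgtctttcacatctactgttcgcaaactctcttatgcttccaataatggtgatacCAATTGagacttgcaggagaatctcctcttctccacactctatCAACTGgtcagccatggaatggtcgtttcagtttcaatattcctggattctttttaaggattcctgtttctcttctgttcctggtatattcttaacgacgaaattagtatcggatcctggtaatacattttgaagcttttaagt
A G-box was present in 2 of the 8 members, DFR (bases 14 to 9 before the start) and BAN (bases 108 to 103), and in 6.49% of 27443 promoters of the same length. An E-box was present in 5 of the 8 members and in 55.3% of all promoters, and TTGAC in 7 of the 8, all but AHA10, and in 44.9%. The MYB motifs ACCAACC and ACCTACC, searched on both strands, had no match in any of the 8 windows and occurred in 2.69% and 1.16% of all promoters. These are letter matches in a short window and say nothing of binding.

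Gene counts totalled 11261844 to 12644525 per PRP8Aa prp8bb library and 8497702 to 12460805 per WT library. WT replicate 1 was the shallowest. Its gene counts may hold each fragment 2 times, because an even number stood in 77.6% of its genes with a count, whereas the other libraries had 47.7% to 48.6%. Counts over exon bins (stretches of annotated exon) totalled 7361474 in WT replicate 1, fewer than its gene counts. The other libraries had 18706217 to 23086207 bin counts, more than their gene counts. Mitochondrial genes took 14.5% of the counts in PRP8Aa prp8bb replicate 2 and 2.41% to 6.51% in the other libraries. PRP8A (SUS2 in RefSeq) averaged 924.6 CPM (counts scaled to a common library size) in PRP8Aa prp8bb ovules and 1157 CPM in WT ovules (edgeR adjusted p = 0.105). The 13 integument genes, among them INO and BEL1, were all measured, and their summed level was 671 to 707 CPM in PRP8Aa prp8bb libraries and 675 to 681 CPM in WT libraries. Genes of the seed after fertilisation were low, at a summed 12.9 to 28.5 CPM for PRP8Aa prp8bb and 10.3 to 15.1 CPM for WT over 15 genes, of which ZOU, WOX2, LEC2, AGL36 and MYB118 had no count in any library. Most of that sum was WOX9, with 12, 27.3 and 21 CPM in PRP8Aa prp8bb libraries and 8.88, 10.8 and 9.59 CPM in WT libraries (log2 fold change 1.02, edgeR adjusted p = 0.0688). In the alternatives, 1 gene of the list rose with DESeq2, with the replicate number as a block, with summed exon bin counts or without PRP8Aa prp8bb replicate 1. The 14 genes other than WOX9 summed to 0.907, 1.22 and 2.02 CPM in PRP8Aa prp8bb replicates 1 to 3, on few counts. In WT replicates 1 to 3 they summed to 1.40, 4.21 and 3.25 CPM. Summed pollen markers (8 genes) ranged from 257 to 670 CPM in PRP8Aa prp8bb libraries and from 295 to 302 CPM in WT libraries. Summed carpel markers (8 genes) were 111 to 134 CPM in PRP8Aa prp8bb libraries and 93.1 to 105 CPM in WT libraries. Summed petal and stamen markers (5 genes) were 11.5 to 16.8 CPM in PRP8Aa prp8bb libraries and 18.7 to 22.5 CPM in WT libraries. Single genes of these lists passed the test: SHP2 of the integuments fell (log2 fold change -0.42, edgeR adjusted p = 0.0471), and PPME1 of pollen (2.28, 0.0241), SPT of the carpel (0.73, 0.0123) and PI of petals and stamens (1.36, 0.026) rose. The call of SHP2 held in 7 of 16 alternatives (adjusted p up to 0.196), that of PI in 10 (up to 0.132), that of PPME1 in 12 (up to 0.108) and that of SPT in 15 (up to 0.0743). The part of these markers in the results that follow was not tested.

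The 3 enzyme genes were expressed at very low levels in PRP8Aa prp8bb ovules and at levels that differed widely among the WT libraries. Levels are given in CPM, on library sizes scaled by the trimmed mean of M values, replicates 1, 2 and 3 in order. In bulk ovules, fewer endothelium cells and less RNA per cell cannot be told apart. DFR had 0.681, 0.405 and 0.441 CPM in PRP8Aa prp8bb libraries (9, 4 and 5 counts), against 3.04, 34.4 and 19.7 CPM in WT libraries (26, 441 and 254 counts). Every PRP8Aa prp8bb library was below every WT library, and WT replicate 1 was far below the other WT libraries. The mean of 0.509 ± 0.150 CPM in PRP8Aa prp8bb ovules was 37.4-fold lower than the 19.0 ± 15.7 CPM in WT ovules (SD, n = 3 each). DFR fell with a log2 fold change of -5.19 (SE 1.06, edgeR quasi-likelihood test, Benjamini-Hochberg adjusted p = 0.0497), a margin close to the threshold of 0.05.

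LDOX, the next step, had 1.66, 0.405 and 0.705 CPM in PRP8Aa prp8bb libraries (22, 4 and 8 counts), against 5.61, 38.6 and 24.4 CPM in WT libraries (48, 495 and 315 counts). The groups did not overlap, and WT replicate 1 was again the lowest WT library. LDOX averaged 0.925 ± 0.657 CPM in PRP8Aa prp8bb ovules and 22.9 ± 16.5 CPM in WT ovules, a 24.7-fold lower mean, and it fell (log2 fold change -4.56, SE 0.89, edgeR adjusted p = 0.0422). BAN, the enzyme that commits the pathway to proanthocyanidins, had 3.40, 1.22 and 2.29 CPM in PRP8Aa prp8bb libraries (45, 12 and 26 counts), against 15.9, 72.0 and 43.5 CPM in WT libraries (136, 923 and 562 counts). It was the best covered of the 3 enzyme genes, and its groups did not overlap. BAN averaged 2.30 ± 1.09 CPM in PRP8Aa prp8bb ovules and 43.8 ± 28.0 CPM in WT ovules, 19.0-fold lower, and fell (log2 fold change -4.21, SE 0.68, edgeR adjusted p = 0.0230).

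**Figure D1:**
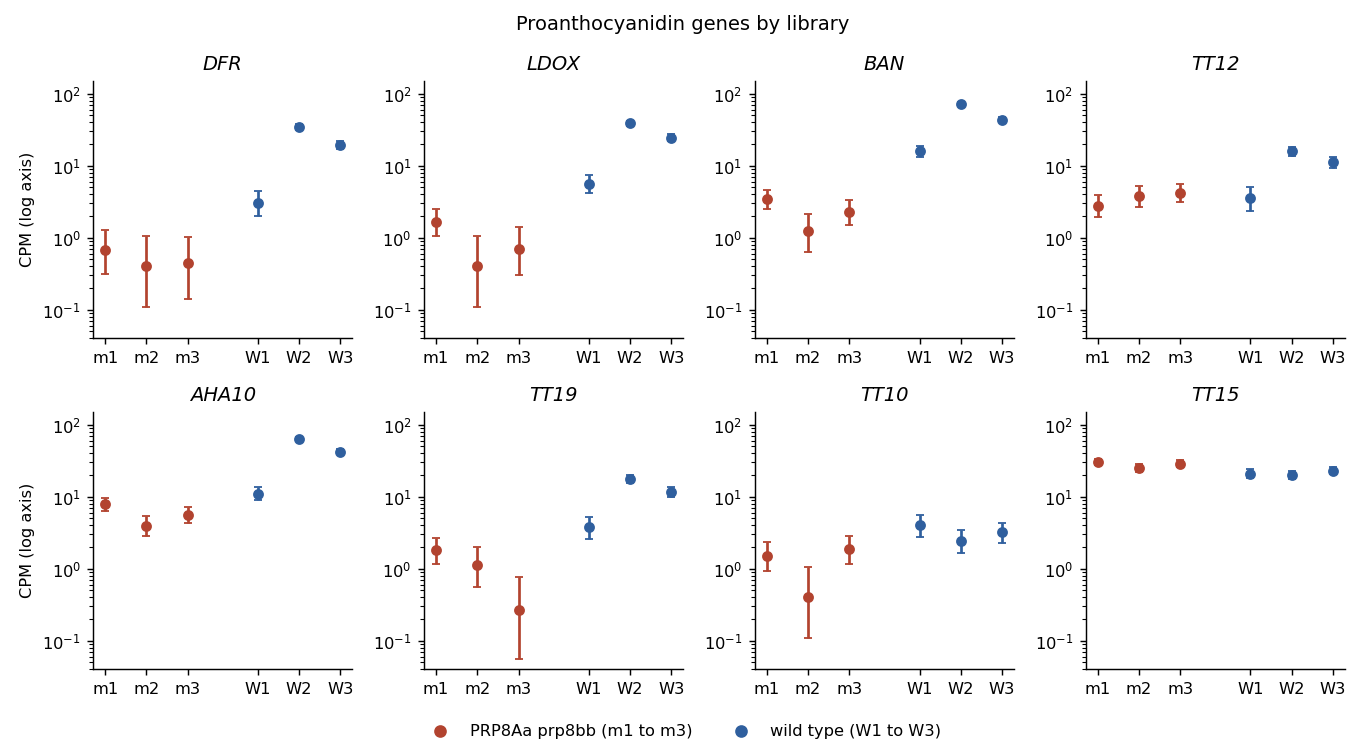
Level of each of the 8 genes by library in CPM on a log axis, with PRP8Aa prp8bb libraries (m1 to m3) left of WT libraries (W1 to W3) and bars for exact 95% Poisson intervals, which cover counting error only. For 6 genes WT replicate 1 is the lowest WT library and WT replicate 2 the highest, whereas TT10 and TT15 have another order. Only TT12 has groups whose points overlap, but the bars of the groups also meet in AHA10, TT19, TT10 and TT15.

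The genes of transport were lower in mean in PRP8Aa prp8bb ovules, but none passed the test. TT19 had 1.82, 1.12 and 0.265 CPM in PRP8Aa prp8bb libraries (24, 11 and 3 counts), against 3.74, 17.8 and 11.5 CPM in WT libraries (32, 228 and 149 counts). Its groups did not overlap, and its mean of 1.06 ± 0.777 CPM in PRP8Aa prp8bb ovules was 10.3-fold lower than the 11 ± 7.03 CPM in WT ovules. Its log2 fold change of -3.35 (SE 0.73) missed the threshold in the sixth decimal (edgeR adjusted p = 0.0500012). AHA10 had 7.79, 3.95 and 5.55 CPM in PRP8Aa prp8bb libraries (103, 39 and 63 counts), against 11, 62.7 and 42.2 CPM in WT libraries (94, 804 and 545 counts). The nearest libraries of its groups, PRP8Aa prp8bb replicate 1 and WT replicate 1, stood close together, with a log2 fold change of -2.74 over all 6 libraries (SE 0.67, edgeR adjusted p = 0.0848).

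TT12 had 2.80, 3.75 and 4.23 CPM in PRP8Aa prp8bb libraries (37, 37 and 48 counts), against 3.51, 15.8 and 11.1 CPM in WT libraries (30, 202 and 144 counts). It was the member whose groups overlapped, since WT replicate 1 lay within the PRP8Aa prp8bb range. TT12 averaged 3.59 ± 0.730 CPM in PRP8Aa prp8bb ovules and 10.1 ± 6.19 CPM in WT ovules (log2 fold change -1.53, SE 0.49, edgeR adjusted p = 0.146).

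TT10 and TT15 did not share the pattern of the other 6 genes. TT10 had 1.51, 0.405 and 1.85 CPM in PRP8Aa prp8bb libraries (20, 4 and 21 counts), against 3.97, 2.42 and 3.17 CPM in WT libraries (34, 31 and 41 counts). The groups did not overlap, but in WT ovules the laccase gene was highest in replicate 1 and lowest in replicate 2, and its log2 fold change of -1.29 (SE 0.45) did not pass (edgeR adjusted p = 0.146). TT15 had 30.3, 24.6 and 28.4 CPM in PRP8Aa prp8bb libraries (400, 243 and 322 counts), against 20.9, 20 and 22.8 CPM in WT libraries (179, 256 and 295 counts). It was the one member with all 3 PRP8Aa prp8bb libraries above all WT libraries, with means of 27.8 ± 2.86 CPM in PRP8Aa prp8bb ovules and 21.2 ± 1.46 CPM in WT ovules, 1.31-fold higher. Its log2 fold change of 0.39 (SE 0.12) did not pass (edgeR adjusted p = 0.112).

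Of the 8 members, 3 fell, whereas 2.79% of the 19297 tested genes fell, and 0 rose, whereas 3.05% of tested genes rose. At an unadjusted p under 0.05, 7 members were lower, as were 9.47% of tested genes, and 1, TT15, was higher, as were 9.49%. All PRP8Aa prp8bb libraries lay below all WT libraries in 6 members and in 12.9% of tested genes, and above them in 1 member and in 12.6%. These counts leave out counting error, and the 95% Poisson intervals of the groups stayed apart only in DFR, LDOX and BAN. The median log2 fold change was -3.04 over the 8 members and -0.01 over all tested genes. All 8 members passed the filter on low counts, but DFR, LDOX, TT19 and TT10 passed through their WT libraries: only 0, 1, 2 and 2 of their PRP8Aa prp8bb libraries reached its level of 0.843 CPM. The members were also chosen with earlier results of these data known, so these counts are no support by themselves.

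The direction of every member was the same in all 16 alternative analyses, but the calls depended on single libraries. Without PRP8Aa prp8bb replicate 1, 2 or 3, no member passed, and the adjusted p of BAN was 0.0729, 0.133 and 0.103. No member passed without WT replicate 3 either (BAN 0.0793), and BAN alone did without WT replicate 2 (adjusted p = 0.0306). The adjusted p of DFR was 0.0691 to 0.233 and that of LDOX 0.0754 to 0.202 over these 5 fits. Without WT replicate 1, the library with the lowest WT level of 6 members and with the uncertain counts, 6 members fell, and 3.60% of 19647 tested genes did, while 0 members and 3.52% of tested genes rose. In that fit DFR had a log2 fold change of -5.67 (adjusted p = 0.000107), LDOX -4.99 (0.00104), BAN -4.59 (0.00221), TT19 -3.73 (0.00571), AHA10 -3.16 (0.00137) and TT12 -1.91 (0.0016).

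The DESeq2 Wald test on the same counts called the same 6 genes, DFR, LDOX, BAN, TT19, AHA10 and TT12, and called 3.38% of 22361 genes as lower. It called 0 members and 3.47% of all genes as higher. The authors' deposited table, which lists 1543 genes, holds these 6 members and neither TT10 nor TT15. It comes from the same libraries, so it is no separate support. In the authors' deposited table the log2 fold changes are -5.21 for DFR, -4.61 for LDOX, -4.24 for BAN, -3.36 for TT19, -2.74 for AHA10 and -1.50 for TT12. Halving the counts of WT replicate 1 added TT19 to the 3 calls (log2 fold change -3.41, edgeR adjusted p = 0.0370).

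**Figure D2:**
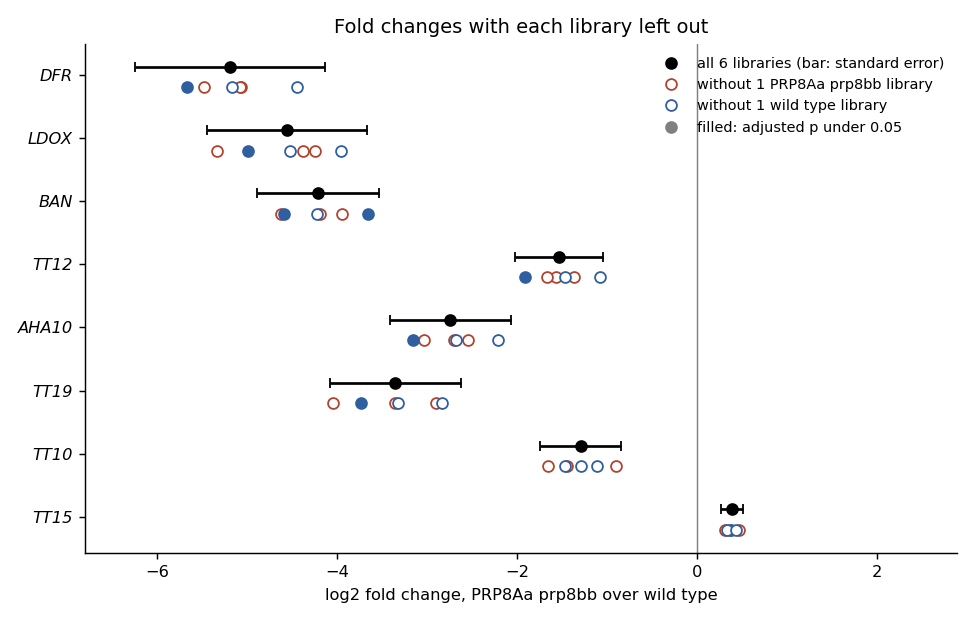
Log2 fold change of each gene, PRP8Aa prp8bb over WT, with all 6 libraries (black, bar for the standard error) and with each library left out in turn (red, a PRP8Aa prp8bb library left out; blue, a WT library left out; filled, adjusted p under 0.05). All points of a gene lie on one side of 0, and the filled points belong to fits without WT replicate 1 or, for BAN, also without WT replicate 2.

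The spread among WT libraries was the second property examined. For DFR, LDOX, BAN, TT12, AHA10 and TT19, WT replicate 2 had 4.49 to 11.3 times the level of WT replicate 1, and WT replicate 3 had 2.74 to 6.47 times that level. Replicates 2 and 3 were closer, with ratios of 1.41 to 1.75. DFR, at 11.3, had the widest range, followed by LDOX (6.88) and AHA10 (5.71), and these 3 members had a ratio of at least 5, as had 1.35% of tested genes. The median ratio of highest to lowest WT library was 1.27 over all tested genes. TT10 (1.64) and TT15 (1.14) varied less.

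Counting error alone was smaller than these gaps. The exact 95% Poisson interval of DFR was 1.98 to 4.45 CPM in WT replicate 1, 31.3 to 37.8 CPM in replicate 2 and 17.3 to 22.2 CPM in replicate 3, so no pair of intervals overlapped. For BAN the intervals were 13.3 to 18.8, 67.4 to 76.8 and 40.0 to 47.2 CPM, again without overlap. The interval of WT replicate 1 is too narrow if its fragments were counted 2 times.

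On the log2 scale, the SD over the 3 WT libraries was 1.79 for DFR, 1.43 for LDOX, 1.31 for AHA10, 1.13 for TT19, 1.11 for TT12 and 1.10 for BAN. Between 99.0% and 99.9% of tested genes had a smaller SD than these 6 members. TT10 had 0.34 and TT15 had 0.10, with 79.9% and 23.8% of tested genes below them. The median over the 8 members was 0.58 in PRP8Aa prp8bb libraries and 1.12 in WT libraries, and over all tested genes it was 0.17 in PRP8Aa prp8bb libraries and 0.18 in WT libraries. In PRP8Aa prp8bb libraries the SD rests on counts as low as 3 and is itself imprecise.

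**Figure D3:**
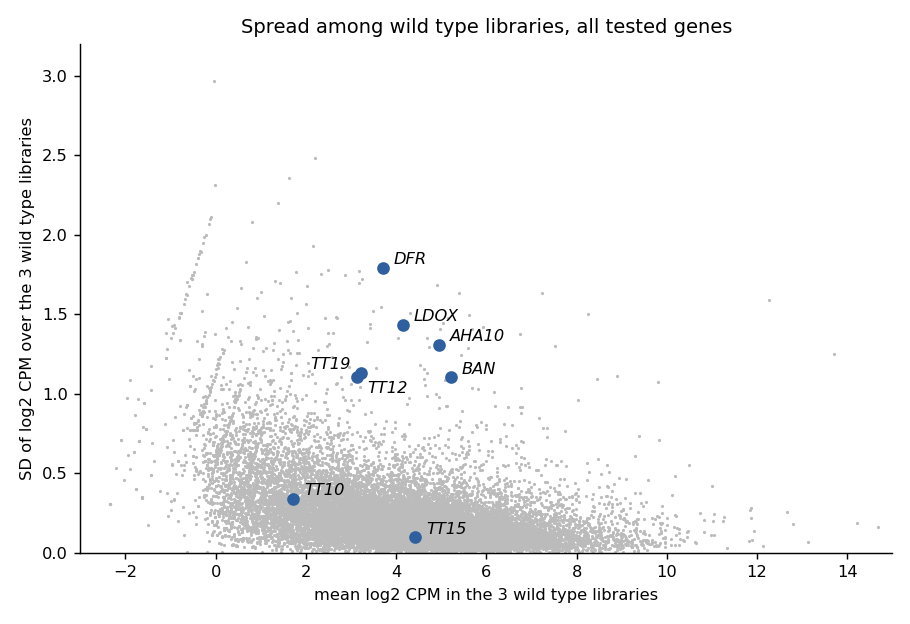
SD of log2 CPM over the 3 WT libraries (vertical axis) against mean log2 CPM in those libraries (horizontal axis) for all 19297 tested genes (grey) and the 8 members (blue). DFR, LDOX, AHA10, TT19, TT12 and BAN stand at SDs of 1.10 to 1.79, above most of the grey points, and TT10 and TT15 lie within the grey cloud.

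The order of the WT libraries for the 6 genes, replicate 2 highest and replicate 1 lowest, was shared with 24.4% of tested genes. Heat shock genes had the same order in 6 of the 7 that were tested, with a summed level of 171, 331 and 224 CPM in PRP8Aa prp8bb replicates 1 to 3 and 155, 1050 and 591 CPM in WT replicates 1 to 3. HSP101, a protein disaggregase, had 66.6, 135 and 86.7 CPM in PRP8Aa prp8bb libraries and 67.9, 395 and 227 CPM in WT libraries, so its WT libraries stood in the same order as those of DFR. Unlike DFR and BAN, HSP101 was highest among PRP8Aa prp8bb libraries in replicate 2. LHY, a morning gene of the circadian clock, had 8.47, 18.3 and 15.3 CPM in PRP8Aa prp8bb libraries and 75.5, 238 and 168 CPM in WT libraries, and it fell (log2 fold change -3.53, edgeR adjusted p = 0.0164). Its call held in 11 of 16 alternatives, with an adjusted p of up to 0.0858. Of 8 tested clock genes, 2 fell (CCA1 and LHY) and 4 rose (PRR5, TOC1, GI and LUX). Among all tested genes 2.79% fell and 3.05% rose. A small heat shock gene, AT5G12030, fell (log2 fold change -2.80, edgeR adjusted p = 0.0173). It passed the filter through its WT libraries alone, and its call held in 11 of 15 alternatives, with an adjusted p of up to 0.11. Genes of the seed after fertilisation, without WOX9, summed to 1.40, 4.21 and 3.25 CPM in WT replicates 1 to 3, again in the order of DFR. The part of the heat shock genes, clock genes, genes of the seed or library depth in the spread of the proanthocyanidin genes was not tested.

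Among PRP8Aa prp8bb libraries, replicate 2, the library with 14.5% mitochondrial counts, was the lowest for 6 members: DFR, LDOX, BAN, AHA10, TT10 and TT15. TT19 was lowest in replicate 3 and TT12 in replicate 1. The part of the mitochondrial share in these differences was not tested, and most of them rest on fewer than 50 counts.

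Levels between genes were compared per length, in CPM per kilobase of counted exon (RPKM). In WT ovules the order of mean levels was BAN (30.6 RPKM), LDOX (16.3), AHA10 (13.6), DFR (12.5), TT19 (10.1), TT15 (7.06), TT12 (5.66) and TT10 (1.55). Neighbours in this order had overlapping ranges over the 3 libraries, except TT12 (1.96 to 8.81 RPKM) and TT10 (1.17 to 1.93 RPKM). BAN was the highest of the 8 in each WT library. The whole order is that of WT replicate 3, and in replicate 1 TT15 came second at 6.95 RPKM, above LDOX (4.01), AHA10 (3.86), TT19 (3.41) and DFR (2.00).

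In PRP8Aa prp8bb ovules the order was TT15 (9.23 RPKM), AHA10 (2.03), TT12 (2.01), BAN (1.61), TT19 (0.972), LDOX (0.661), TT10 (0.609) and DFR (0.335). TT15 stood apart, at 8.19 to 10.1 RPKM, and was the highest of the 8 in each PRP8Aa prp8bb library. The ranges of neighbours among the other 7 genes overlapped. The summed level of the 6 genes without TT10 and TT15 was 9.98, 5.91 and 6.96 RPKM in PRP8Aa prp8bb libraries, against 26.4, 148 and 92.3 RPKM in WT libraries.

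Because PRP8 acts in splicing, the counts were also followed along the exons of each gene. An exon bin is a stretch of annotated exon, and 81 bins belonged to members, of which 43 were tested. A bin was tested if it reached 10 counts in 3 or more libraries and its gene had at least 2 such bins. The tested bins were 17 of TT15, 12 of AHA10, 5 of BAN, 4 of TT12, 3 of TT19 and 2 of LDOX, so the enzyme genes were little covered. With diffSpliceDGE, 0 of the 43 differed in use between genotypes, whereas 2 of 116071 bins over all genes did (0.00172%). None of the 43 had an unadjusted p under 0.05. This test was conservative here, since 1.59% of all bins had an unadjusted p under 0.05 where 5% would be reached with no difference at all. A fit of each bin against the total of its gene, chosen after seeing the data, reached 4.55% over all bins and also called 0 member bins. In that fit 1 member bin, in AHA10 (5905343 to 5905549 of chromosome 1), had an unadjusted p under 0.05 (edgeR adjusted p = 0.993). No bin of DFR reached 10 counts in 3 libraries. In TT10 only the bin from 19490249 to 19491202 did, with 21, 6 and 18 counts in PRP8Aa prp8bb libraries and 15, 28 and 38 in WT libraries. It was left out because the test needed at least 2 such bins per gene. The use of exons in DFR and TT10 was therefore not tested.

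Along BAN, the WT libraries kept the order of replicate 2, 3 and 1 in each of the 6 bins. Its first bin held 9, 4 and 7 counts in PRP8Aa prp8bb libraries and 10, 261 and 134 in WT libraries. Scaled to the bin total of each library, these were 0.403, 0.214 and 0.339 CPM against 1.36, 11.3 and 5.94 CPM. The last BAN bin held 5, 0 and 8 counts in PRP8Aa prp8bb libraries and 9, 157 and 84 in WT libraries. Scaled in the same way, these were 0.224, 0 and 0.388 CPM against 1.22, 6.8 and 3.72 CPM. The low BAN counts of PRP8Aa prp8bb libraries were thus spread over the gene. In TT12, the bins from 21820232 to 21820318 and from 21820391 to 21820447 had no count in WT replicate 1. PRP8Aa prp8bb libraries had 6, 8 and 3 counts in the first of these bins, and WT replicates 2 and 3 had 37 and 22. TT12 had 25 bin counts in all in WT replicate 1. That library had a bin total of 7361474, against 18706217 to 23086207 in the others, so its raw bin counts are not directly comparable with theirs. The part of this depth in its TT12 bins without a count was not tested.

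**Figure D4:**
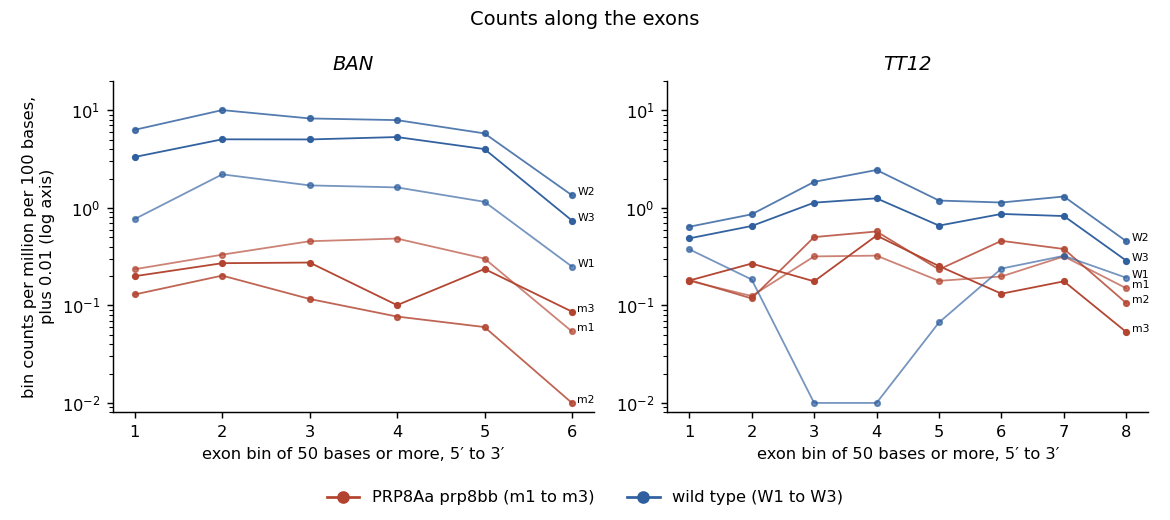
Bin counts as CPM per 100 bases of exon, plus 0.01, along the exon bins of at least 50 bases of BAN and TT12 from 5′ to 3′ on a log axis, for PRP8Aa prp8bb libraries (red, m1 to m3) and WT libraries (blue, W1 to W3). The 3 BAN lines of PRP8Aa prp8bb libraries lie below those of WT libraries in every bin, and the TT12 line of WT replicate 1 reaches the bottom of the axis in 2 bins without a count.

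Among 11 regulators of these genes, 10 were tested, of which 4 fell, against 2.79% of all tested genes, and 0 rose. The median log2 fold change of the list was -0.63. MYB5, TTG2 and TT2 passed the filter through their WT libraries, as 0, 1 and 1 of their PRP8Aa prp8bb libraries reached its level, so the count is no support by itself. It was 2 without PRP8Aa prp8bb replicate 3 or WT replicate 3. MYB5, a MYB protein that acts with the complex, had 0.681, 0.203 and 0.353 CPM in PRP8Aa prp8bb libraries and 3.97, 4.37 and 2.86 CPM in WT libraries, and fell (log2 fold change -3.08, SE 0.43, edgeR adjusted p = 0.00314). TTG2, a WRKY protein of the seed coat, had 0.454, 0.710 and 0.882 CPM in PRP8Aa prp8bb libraries and 2.34, 8.03 and 7.27 CPM in WT libraries, and fell (log2 fold change -3.14, SE 0.51, edgeR adjusted p = 0.00706). MYB5 and TTG2 passed in all 16 alternatives, and the WT libraries of MYB5 did not follow the order of the 6 genes.

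TT2, the MYB protein of the complex, had 0.908, 0.101 and 0.441 CPM in PRP8Aa prp8bb libraries and 1.17, 4.21 and 4.18 CPM in WT libraries, and fell (log2 fold change -2.65, SE 0.64, edgeR adjusted p = 0.0435). TT2 rested on 12, 1 and 5 counts in PRP8Aa prp8bb libraries and passed in 10 of 16 alternatives. STK, a MADS protein of ovule identity that represses BAN, also fell (log2 fold change -0.63, SE 0.13, edgeR adjusted p = 0.0166). The other regulators did not pass. TT8, the bHLH partner, had 7.11, 6.29 and 6.35 CPM in PRP8Aa prp8bb libraries and 6.08, 12.2 and 11.8 CPM in WT libraries (edgeR adjusted p = 0.212). TTG1 had 21.6, 23.8 and 24.4 CPM in PRP8Aa prp8bb libraries and 21.6, 22.2 and 20.8 CPM in WT libraries (edgeR adjusted p = 0.66).

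TT16, a MADS protein needed for endothelium identity, had 26.8, 17.6 and 25.8 CPM in PRP8Aa prp8bb libraries and 24.1, 32.2 and 27.5 CPM in WT libraries. Its groups overlapped, with a log2 fold change of -0.25 (SE 0.17, edgeR adjusted p = 0.473). TT1, a zinc finger protein of the endothelium, had 0.529, 0.811 and 1.32 CPM in PRP8Aa prp8bb libraries and 1.40, 1.87 and 2.63 CPM in WT libraries (adjusted p = 0.171). The 6 endothelium markers that are not members are TT16, TT1, TT2, TT8, TTG2 and MYB5. Each had a count in every library, though TT2 had 1 and MYB5 had 2 in PRP8Aa prp8bb replicate 2. TT2, TTG2 and MYB5 fell, against 2.79% of all tested genes, and these 3 passed the filter through their WT libraries.

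The early steps, which make the dihydroflavonol substrate of DFR, gave no call. Of 10 early flavonoid genes tested with edgeR, 0 fell and 0 rose, 0 had an unadjusted p under 0.05, and their median log2 fold change was -0.18. The DESeq2 Wald test also called 0, with 1 gene at an unadjusted p under 0.05, and the fit with the replicate number as a block called 1. CHS (chalcone synthase) had 441, 833 and 609 CPM in PRP8Aa prp8bb libraries and 384, 724 and 576 CPM in WT libraries. All 10 genes had WT replicate 2 highest and WT replicate 1 lowest among WT libraries, with a ratio of 1.21 to 2.55, a narrower range than in the 6 late genes. In PRP8Aa prp8bb libraries all 10 were highest in replicate 2, the library in which DFR, LDOX and BAN were lowest.

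The anthocyanin branch uses the same DFR and LDOX products. Of 12 genes only 4 were tested, and 3 fell, against 2.79% of all tested genes: 3AT1, an anthocyanin acyltransferase (log2 fold change -5.67, SE 0.91, edgeR adjusted p = 0.00624), SCPL10, an acyltransferase (-1.22, SE 0.26, 0.0263), and PAP1, a MYB activator of anthocyanin genes (-1.89, SE 0.45, 0.0379). 3AT1 had 0, 0 and 1 counts in PRP8Aa prp8bb libraries and 8, 42 and 22 in WT libraries, so the size of its fold change is imprecise, and it passed the filter through its WT libraries alone. The count was 1 without PRP8Aa prp8bb replicate 3, without WT replicate 3, with limma-voom or with summed exon bin counts, 2 without PRP8Aa prp8bb replicate 1 or WT replicate 2, and 5 of 7 tested without WT replicate 1. With no filter, 6 of the 12 genes fell, and DESeq2 also called 6. SCPL10 and PAP1 passed in 9 of 16 alternatives each, with an adjusted p of up to 0.133 for SCPL10 and 0.136 for PAP1, and 3AT1 passed in 15 of 15. UGT79B1, an anthocyanin glycosyltransferase below the filter, had 0, 0 and 1 counts in PRP8Aa prp8bb libraries and 6, 48 and 33 in WT libraries. UGT78D2, a glucosyltransferase of anthocyanins and flavonols, did not pass (log2 fold change -0.10, edgeR adjusted p = 0.89).

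**Figure D5:**
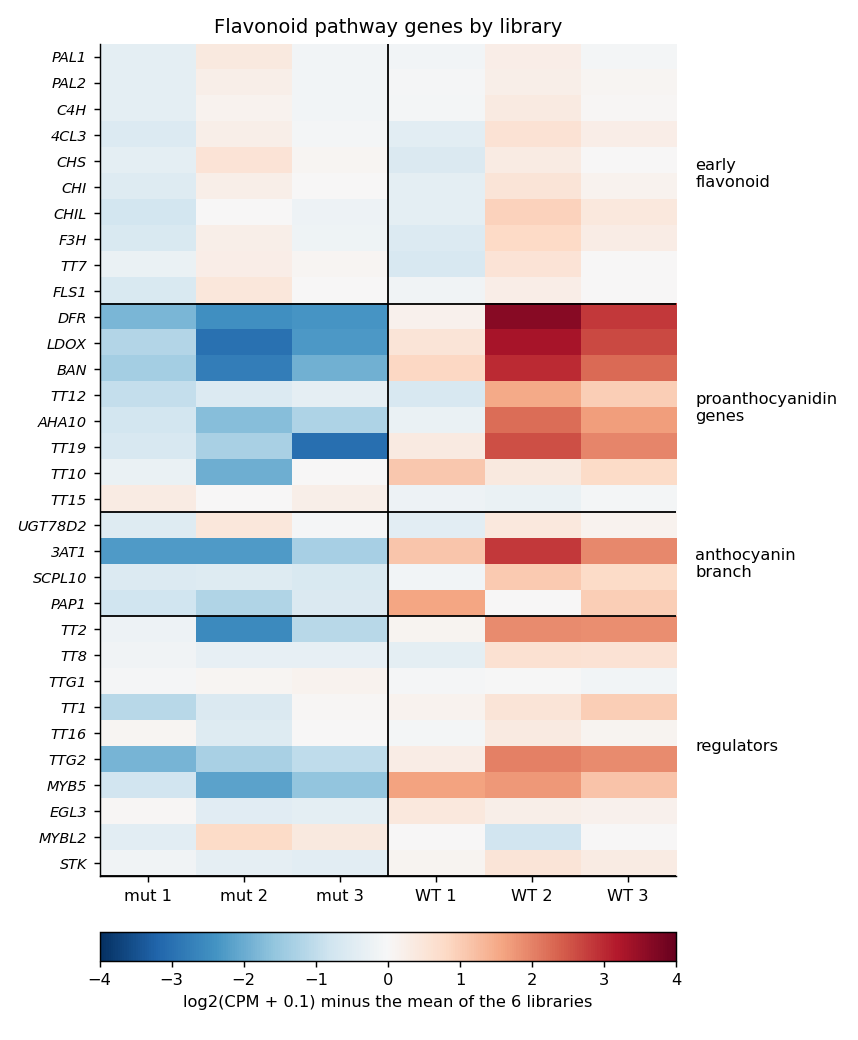
Level of flavonoid pathway genes by library, as log2(CPM + 0.1) minus the mean of the 6 libraries of the gene (red above, blue below), with PRP8Aa prp8bb libraries left of WT libraries. The late genes DFR, LDOX and BAN are blue in PRP8Aa prp8bb libraries and red in WT replicates 2 and 3, whereas early flavonoid genes are pale in all 6 libraries.

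Relatives of the members were read as well. Of 10 other proton pump genes of the AHA family, 0 fell and 1 rose, against 2.79% and 3.05% of all tested genes. The gene that rose was AHA7, with 12.8, 8.31 and 11.2 CPM in PRP8Aa prp8bb libraries and 4.44, 4.52 and 4.49 CPM in WT libraries (log2 fold change 1.27, SE 0.20, edgeR adjusted p = 0.00623). Of 9 other relatives and pathway partners 7 were tested with edgeR and 0 passed, with 1 at an unadjusted p under 0.05 and 0 calls by DESeq2. In the alternatives, 1 gene of this list fell with no filter, without PRP8Aa prp8bb replicate 1 or without WT replicate 1. UGT80A2, the second sterol glucosyltransferase beside TT15, had 43.9, 48.6 and 43.5 CPM in PRP8Aa prp8bb libraries and 40.3, 39.1 and 40.3 CPM in WT libraries (log2 fold change 0.18, edgeR adjusted p = 0.349).

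The genes whose pattern was most like that of the enzymes were ranked by Pearson's r over the 6 libraries with the mean log2 CPM of DFR, LDOX and BAN, as a description in which the libraries fall into 2 genotypes. Among members AHA10 (0.985) and TT19 (0.944) were closest to the enzymes, followed by TT12 (0.864) and TT10 (0.691), and TT15 ran the other way (-0.755). Of all tested genes, 25 had a higher r than AHA10, 257 than TT19 and 947 than TT12, so such values were not particular to the members. The 10 closest genes that are no members had r of 0.991 to 0.999. They were NRT1.6 (a nitrate transporter), AT4G15750, AT5G47350, ABCB12 (an ABC transporter), AT1G56100, SULTR3;4 (a sulfate transporter), CYP78A6 (a cytochrome P450), AT1G61255, NFU3 and PAP29 (a purple acid phosphatase). NRT1.6 had 1.29, 0.912 and 0.970 CPM in PRP8Aa prp8bb libraries and 2.34, 4.99 and 4.02 CPM in WT libraries. AT5G47350 had 2.57, 0.912 and 2.12 CPM in PRP8Aa prp8bb libraries and 10.3, 68.2 and 42.6 CPM in WT libraries, so its WT libraries stood in the same order as those of LDOX.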

How the data were processed

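Ovule RNA was sequenced as stranded total RNA libraries, 3 per genotype, per the labels. The submitters' processing notes name Trimmomatic, STAR, Subread 1.6.0 with featureCounts, DESeq2 and the TAIR10 build. The authors deposited whole-number counts of fragments without normalization, per gene and per exon bin, made on annotation release 37 with strand setting 1, per the file headers. The authors' deposited table of their comparison gives log2 fold changes and adjusted p-values. An intron retention table, which names no sample, was not used here.

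Gene counts were tested with edgeR 4.0.16 in R 4.3.3 (glmQLFit and glmQLFTest, robust, TMM factors, filterByExpr with a minimum count of 10, no covariate) over all genes, with Benjamini-Hochberg adjusted p under 0.05. Exon bins that reached 10 counts in 3 or more libraries were tested with diffSpliceDGE, in genes with at least 2 such bins. DESeq2 1.42.0, limma 3.58.1 (voom), other factors and filters, and fits without each library were alternatives. Libraries were grouped by title. Totals of 8497702 to 12644525 counts set the precision, and Poisson intervals cover counting error only. The lowest total, that of WT replicate 1, may overstate its depth. Replicates differed beyond sampling noise (chi-square per gene 4.85 to 84.4). The labels call them biological without naming separate plants, and p-values reflect the spread among these libraries only, some of which may be technical. Log2 CPM used a prior count of 2. Each standard error is the size of the log2 fold change divided by the root of its F statistic.

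The 8 members and the other 12 gene lists were chosen with earlier results of these data known. Named are all members, the TT2, TT8, TTG1, TT1, TT16, TTG2 and MYB5 regulators, list genes past the threshold (at most 4 per direction) and the 10 most similar genes. Other genes were named after their values were seen. Gene names and promoters came from RefSeq TAIR10.1. Of the genes, 32548 were found there by identifier, 99.95% with the same start and end, and those of the 8 members were identical. The edgeR test was checked on simulated counts with known changes.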

Additional observations from a re-analysis of the deposited data

How the results depend on the processing

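The log2 fold change of each of the 8 members kept its sign in all 16 alternatives, and ranged from -5.67 to -4.45 for DFR, from -5.34 to -3.96 for LDOX, from -4.62 to -3.66 for BAN, from -4.05 to -2.83 for TT19, from -3.16 to -2.21 for AHA10, from -1.91 to -1.07 for TT12, from -1.65 to -0.83 for TT10 and from 0.32 to 0.47 for TT15. The number of members that fell was 3 with edgeR, 6 with the DESeq2 Wald test, 1 with limma-voom, 0 with no filter on low counts, and 0 to 6 with 1 library left out. Summed exon bin counts in place of gene counts, an alternative chosen after seeing the data, gave 3. With no filter, 26393 genes were tested. The cause of these moves was not tested. Members that rose numbered 0 in each setting. Over all genes, 539 fell and 589 rose, and with 1 library left out 181 to 707 fell and 250 to 692 rose. The lowest of these counts came without PRP8Aa prp8bb replicate 3 (181 and 250), followed by those without WT replicate 3 (198 and 257). The median WT spread of the members was 1.12, and 1.13 to 1.14 in the 4 alternatives. Low counts limit the members mainly in PRP8Aa prp8bb libraries, where DFR had 4 to 9 counts.

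Replicate numbers did not pair the libraries, since the deviations of same-numbered libraries correlated at -0.05, -0.05 and 0.10. With the replicate number as a block, 1 member, DFR, passed (adjusted p = 0.0347), and member exon bins called stayed at 0. Only the libraries numbered 3 correlated best with their own number.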
